A study of Mus musculus with 8 samples.

Results

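The 8 genes described here encode the machinery with which Müller glia keep the retina in balance. Slc1a3 and Glul take up and recycle glutamate, Kcnj10 and Aqp4 pass potassium and water, Car14 and Car2 are carbonic anhydrases, Sox9 is a transcription factor of these cells and Dkk3 is a secreted protein. They were chosen by symbol, from general knowledge of Müller glia, with earlier results of these data known. All 8 were found among the 57010 mouse Ensembl identifiers of the count table, and all 8 passed the filter on low counts that left 20457 genes to test.

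Müller glia are the principal glia of the retina and span it from the inner surface to the photoreceptor layer. They clear glutamate released by neurons through the transporter encoded by Slc1a3, turn it into glutamine with the enzyme encoded by Glul, and return the glutamine to neurons. They also carry potassium and water away from active synapses and buffer acid. When photoreceptors die, Müller glia become reactive, a state known for the intermediate filament gene Gfap, and in some injuries this state is accompanied by lower levels of the homeostatic genes.

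The study sequenced poly(A) RNA of whole retina to follow gene expression as photoreceptors degenerated. The groups were wild-type mice at postnatal day 15 (WT P15) and rd10 mice at that age, at P18 or at P21, with 2 libraries per group, 8 in all, and 1 whole retina in each library. The rd10 mice are homozygous for a mutation in the rod phosphodiesterase gene Pde6b, so that rods are the cells that carry the primary defect, and the methods give wild-type littermates as controls and C57BL/6J as the WT strain. No agent or transgene was used in these groups. WT retina was present at P15 alone, so that age and genotype change together in the P18 and P21 comparisons with WT, and all 3 comparisons with WT share the same control libraries.

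Upstream sequences are shown for the glutamate pair, whose levels lay on opposite sides of WT P15 in both rd10 P18 libraries. The 250 bases before the RefSeq start, on GRCm38.p6, were read for 4 of the 8 genes, Slc1a3, Glul, Kcnj10 and Car14. The RefSeq starts of Slc1a3 and Glul are not the gene starts given below. The Slc1a3 stretch lies at chr15:8710808-8711057 on the minus strand and the Glul stretch at chr1:153899679-153899928 on the plus strand, both 5′ to 3′. Capitals mark a match to a STAT-type motif.
Slc1a3: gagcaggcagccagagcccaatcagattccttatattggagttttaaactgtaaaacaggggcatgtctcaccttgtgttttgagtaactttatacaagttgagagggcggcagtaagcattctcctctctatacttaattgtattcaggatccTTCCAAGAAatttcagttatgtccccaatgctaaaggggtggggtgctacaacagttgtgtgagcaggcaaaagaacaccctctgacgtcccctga
Glul: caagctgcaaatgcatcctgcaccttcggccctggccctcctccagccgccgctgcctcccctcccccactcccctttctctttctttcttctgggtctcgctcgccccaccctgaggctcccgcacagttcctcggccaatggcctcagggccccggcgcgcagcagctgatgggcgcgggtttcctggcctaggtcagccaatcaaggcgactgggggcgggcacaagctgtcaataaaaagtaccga

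Both strands were searched for the STAT-type motif TTCNNNGAA and for the SOX core ACAAAG, since Stat3 is among the reactive genes and Sox9 among the 8. The STAT-type motif was found in 1 of the 4 stretches, as TTCCAAGAA from 96 to 88 bases before the RefSeq start of Slc1a3. It was found in 7.04% of the 32536 stretches of this length in the RefSeq table. The SOX core was found in 0 of the 4 stretches and in 16.5% of all stretches. Chromosome 18, where Aqp4 lies, was left out when stretches of the 8 genes were read. It was not left out of the shares over all stretches. A match is a description of the letters in this window.

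Each library held between 28076947 and 33724562 counts. The rd10 P18 libraries stood apart from each other most, with a chi-square per gene of 94.98 between them, against 23.02 to 36.66 within the other groups. Counts of 4 Y-linked genes numbered 3 to 19 for both WT libraries and for replicate 2 at rd10 P18 and P21, whereas the other 4 libraries had 5530 to 7193. Sex and genotype therefore cannot be told apart at P15, and values within libraries of like Y-linked counts are given below for the genes that differed most. Each group had 2 libraries, so that p-values measure the spread between these libraries, and an exact two-sided permutation test of 2 against 2 cannot go below 0.333.

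For comparison, 10 other genes of Müller glia were read, including Rlbp1, which encodes a retinoid-binding protein of these cells, and all 10 were detected. Detection in whole retina does not check the label, since it does not tell which cells made these 10 genes. Their summed level lay between 2577 and 4580 CPM (counts scaled to library size by TMM), beside a summed level of 3727 to 5425 CPM for the 8 genes. In whole retina, fewer cells of a type and less RNA per cell cannot be told apart, and neither can a larger share left by the loss of other cells. A list of 7 rod genes, among them Gnat1, which encodes rod transducin, summed to 22476 and 20453 CPM in WT P15 and to 9697 and 11851 CPM in rd10 P21, and the part of this in the values below was not tested.

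Levels between genes were compared per kilobase of exon (RPKM). Glul, the glutamine synthetase gene, was highest, at 730.5 ± 132.1 RPKM (SD, n = 8 libraries), and alone gave 48.3% to 58.5% of the summed CPM of the 8 genes. Dkk3 followed at 283.9 ± 52.35 RPKM and Car2 at 188.6 ± 11.91 RPKM. The ranges of these 3 genes did not overlap each other or those of any other of the 8.

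Slc1a3 lay at 32.06 ± 4.721 RPKM, Car14 at 30.64 ± 5.854 RPKM and Aqp4 at 23.15 ± 8.015 RPKM. Slc1a3 was above Car14 in 4 of 8 libraries and Car14 above Aqp4 in 7 of 8, with overlapping ranges, so that these neighbours are not separated. Kcnj10 was at 16.53 ± 3.552 RPKM, below Aqp4 in all 8 libraries though the ranges over libraries overlapped. Sox9 was lowest at 5.512 ± 1.683 RPKM, clear of the others.

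**Figure D1:**
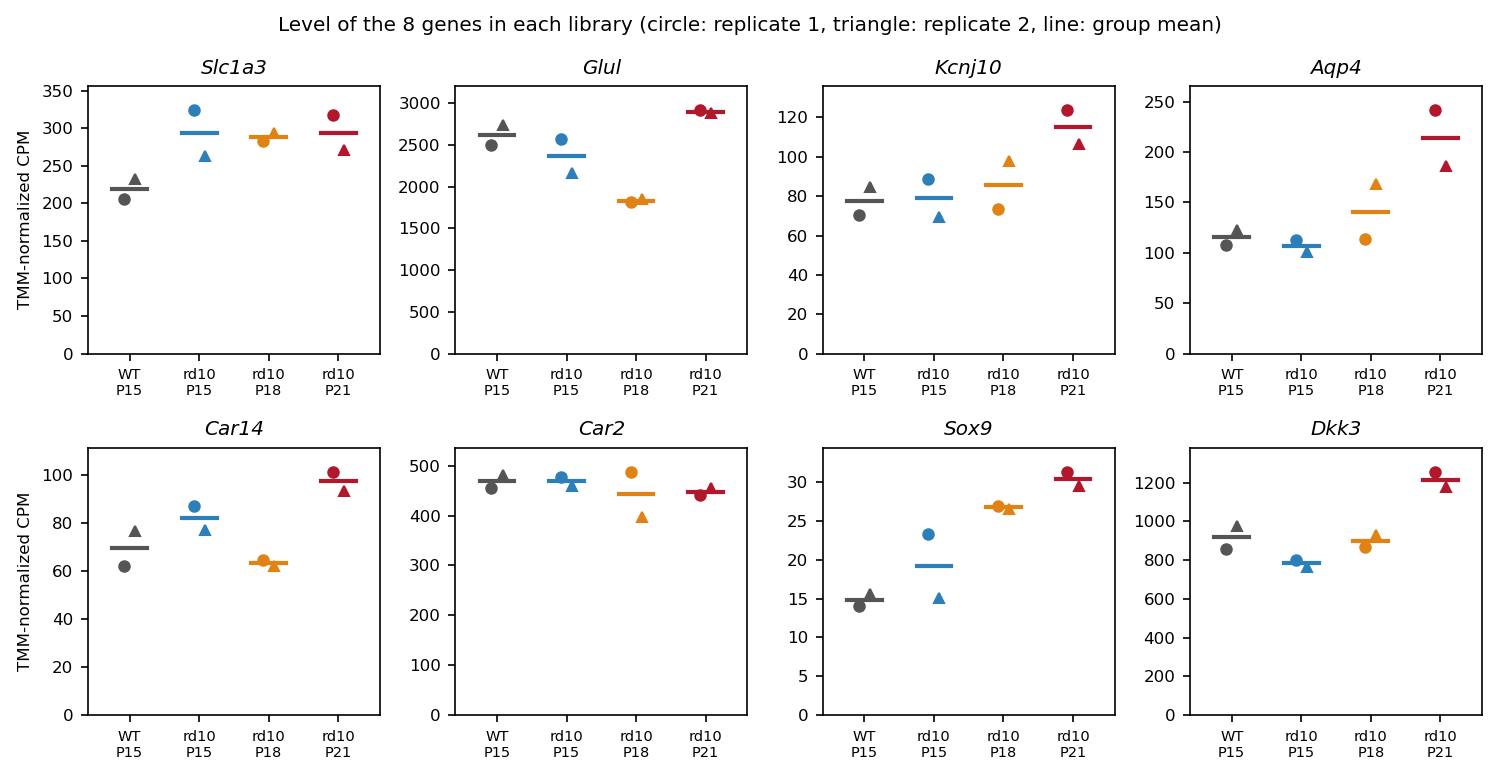
Level of each of the 8 genes in CPM (vertical axes, one panel per gene) in WT P15 and rd10 P15, P18 and P21. Points are single libraries (n = 2 per group) and lines are group means. Glul was lowest in rd10 P18, Aqp4 and Dkk3 were highest in rd10 P21, and Car2 stayed between 397 and 488 CPM.

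Slc1a3 (ENSMUSG00000005360, chromosome 15, 8634124 to 8710764, minus strand, GRCm38) encodes the glutamate and aspartate transporter of Müller glia. It was read at 206 and 232 CPM in WT P15, 324 and 263 CPM in rd10 P15, 283 and 294 CPM in rd10 P18 and 317 and 271 CPM in rd10 P21. All 6 rd10 libraries were above both WT libraries, while the rd10 ages overlapped. The log2 fold change against WT P15 was 0.42 at P15 (SE 0.154, edgeR quasi-likelihood adjusted p = 0.314), 0.40 at P18 (adjusted p = 0.236) and 0.43 at P21 (adjusted p = 0.326). None passed the threshold of adjusted p under 0.05 with an absolute log2 fold change over 1. Between rd10 P21 and rd10 P18 the log2 difference was 0.03, with a 95% interval from -0.33 to 0.38.

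Glul (ENSMUSG00000026473, chromosome 1, 153899944 to 153909723, plus strand) converts glutamate to glutamine. Its level in WT P15 was 2498 and 2735 CPM, with 2569 and 2163 CPM in rd10 P15, 1813 and 1846 CPM in rd10 P18 and 2914 and 2883 CPM in rd10 P21. Both rd10 P18 libraries were below all other libraries, and both rd10 P21 libraries were above all others. Against WT P15 the log2 fold change was -0.52 at P18 (SE 0.137, 95% interval -0.83 to -0.20, edgeR adjusted p = 0.107) and 0.15 at P21 (adjusted p = 0.764). From rd10 P18 to rd10 P21 it was 0.66 (95% interval 0.35 to 0.98, unadjusted p = 0.00114, edgeR adjusted p = 0.378).

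Within the 4 libraries with few Y-linked counts, the log2 ratio of Glul to WT P15 was -0.50 at P18 and 0.14 at P21. DESeq2, the tool of the study, gave Glul an adjusted p of 0.0242 for rd10 P18 against WT P15 and 0.00925 for rd10 P21 against rd10 P18, in both cases under the fold threshold. Glul and Slc1a3, the adjoining steps of the glutamate cycle, thus lay on opposite sides of WT P15 in both rd10 P18 libraries. Exons of Glul overlap those of the microRNA gene Mir8114, which took between 0.00148% and 2.88% of the reads of the pair, and adding these reads to Glul left all 6 of its comparisons with the same direction and on the same side of the threshold.

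Kcnj10 (ENSMUSG00000044708, chromosome 1, 172341210 to 172374085, plus strand) encodes the inward rectifier Kir4.1, the main potassium channel of Müller glia. It was read at 70.5 and 84.9 CPM in WT P15, 88.7 and 69.2 CPM in rd10 P15, 73.4 and 97.7 CPM in rd10 P18 and 124 and 107 CPM in rd10 P21. Both rd10 P21 libraries were above all 6 others, which overlapped among themselves. The log2 fold change of rd10 P21 was 0.57 against WT P15 (SE 0.195, 95% interval 0.12 to 1.01, edgeR adjusted p = 0.296) and 0.54 against rd10 P15 (edgeR adjusted p = 0.298).

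Aqp4 (ENSMUSG00000024411, chromosome 18, 15389496 to 15410982, minus strand) encodes the water channel that shares the glial endfeet with Kir4.1. Its level in WT P15 was 108 and 123 CPM, with 113 and 100 CPM in rd10 P15, 113 and 169 CPM in rd10 P18 and 242 and 187 CPM in rd10 P21. Both rd10 P21 libraries were above all others, and the rd10 P18 libraries differed from each other by a ratio of 1.49. The log2 fold change of rd10 P21 was 0.89 against WT P15 (SE 0.212, 95% interval 0.41 to 1.38, edgeR adjusted p = 0.132) and 1.00 against rd10 P15 (SE 0.213, 95% interval 0.52 to 1.49, edgeR adjusted p = 0.108).

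By DESeq2, Aqp4 was called in rd10 P21 against rd10 P15 (log2 fold change 1.00, adjusted p = 0.00192), beside 2.6% of the genes it tested. An edgeR fit of the 4 libraries of that comparison also called it (adjusted p = 0.0345), as did the edgeR fits without rd10 P18 replicate 1 or replicate 2. The other 6 fits with a library left out did not call it, at adjusted p of 0.114 to 0.519, and its log2 fold change fell under the fold threshold when rd10 P21 replicate 1 (0.80) or rd10 P15 replicate 2 (0.92) was the one left out. Among libraries with few Y-linked counts the log2 ratio of Aqp4 in rd10 P21 to WT P15 was 0.69, and among those with many the ratio of rd10 P21 to rd10 P15 was 1.18, with 1 rd10 P21 library in each. Aqp4 had the widest spread over the 8 libraries of all 8 genes, with the highest library 2.4 times the lowest.

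Car14 (ENSMUSG00000038526, chromosome 3, 95897768 to 95904691, minus strand) encodes a membrane carbonic anhydrase whose active site faces the extracellular space. It was read at 62.0 and 76.6 CPM in WT P15, 87.0 and 76.9 CPM in rd10 P15, 64.5 and 61.9 CPM in rd10 P18 and 101 and 93.3 CPM in rd10 P21. As with Glul, both rd10 P18 libraries were below both rd10 P15 libraries and both rd10 P21 libraries were above all others. For rd10 P21 it was at a log2 fold change of 0.49 against WT P15 (SE 0.148, 95% interval 0.15 to 0.83, edgeR adjusted p = 0.227) and 0.62 against rd10 P18 (95% interval 0.28 to 0.96, edgeR adjusted p = 0.407). Exons of Car14 overlap those of Aph1a on the other strand, which had 894 to 1387 counts beside 1678 to 3546 for Car14, and the library protocol does not mark strand, so that reads of the overlap cannot be told apart.

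Car2 (ENSMUSG00000027562, chromosome 3, 14886273 to 14900770, plus strand) encodes the cytosolic carbonic anhydrase of Müller glia, which red blood cells and oligodendrocytes also make. WT P15 had 456 and 480 CPM, with 478 and 460 CPM in rd10 P15, 488 and 397 CPM in rd10 P18 and 441 and 455 CPM in rd10 P21. The groups lay close together, and the highest library was 1.23 times the lowest, the narrowest spread of the 8 genes. Against WT P15 the log2 fold change was 0.0019 at P15 (95% interval -0.32 to 0.32), -0.08 at P18 and -0.06 at P21 (95% interval -0.38 to 0.26), with edgeR adjusted p of 1.0, 0.816 and 0.935. Red blood cell genes summed to 177 and 188 CPM in WT P15 and 67.1 and 84.5 CPM in rd10 P15, where Car2 lay in the same range. Of 6 oligodendrocyte genes, Mobp had no count in any library and Mog was at or under 0.03 CPM, while the other 4 passed the filter. In rd10 P21 against WT P15, 3 of these 4 had a log2 fold change above 0 and 1 below, with a median of 0.12. The list summed to between 34.5 and 49.7 CPM in all libraries, and the part of red blood cells and oligodendrocytes in Car2 was not tested.

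Sox9 (ENSMUSG00000000567, chromosome 11, 112782224 to 112787760, plus strand) encodes a transcription factor of Müller glia and retinal progenitors. It was read at 14.0 and 15.5 CPM in WT P15, 23.4 and 15.05 CPM in rd10 P15, 27.0 and 26.5 CPM in rd10 P18 and 31.3 and 29.5 CPM in rd10 P21. All 4 rd10 P18 and P21 libraries were above all P15 libraries, and the rd10 P15 libraries differed by a ratio of 1.55. The log2 fold change against WT P15 was 0.38 at P15 (edgeR adjusted p = 0.550), 0.86 at P18 (SE 0.223, 95% interval 0.34 to 1.37, edgeR adjusted p = 0.103) and 1.04 at P21 (SE 0.224, 95% interval 0.53 to 1.55, edgeR adjusted p = 0.108).

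DESeq2 called Sox9 in rd10 P21 against WT P15 (adjusted p = 0.00607), beside 2.76% of the genes it tested. The edgeR fit of those 4 libraries alone called it as well (adjusted p = 0.0429). An edgeR fit with a term for Y-linked counts did not call Sox9 in that comparison (adjusted p = 0.212). No edgeR fit with a library left out called Sox9 in that comparison, at log2 fold changes of 0.98 to 1.12. Its log2 fold change fell under the fold threshold when WT P15 replicate 1 (0.98) or rd10 P21 replicate 1 (0.995) was left out. Among libraries with few Y-linked counts the log2 ratio of Sox9 to WT P15 was 0.84 at P18 and 1.00 at P21, with 1 rd10 library at each age.

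Dkk3 (ENSMUSG00000030772, chromosome 7, 112116017 to 112159057, minus strand) encodes a secreted member of the Dickkopf family. WT P15 had 859 and 975 CPM, with 803 and 766 CPM in rd10 P15, 865 and 928 CPM in rd10 P18 and 1256 and 1176 CPM in rd10 P21. Both rd10 P15 libraries were below and both rd10 P21 libraries above all others. For rd10 P21 the log2 fold change was 0.41 against WT P15 (95% interval 0.11 to 0.71, edgeR adjusted p = 0.265) and 0.63 against rd10 P15 (SE 0.132, 95% interval 0.33 to 0.93, edgeR adjusted p = 0.106). DESeq2 gave the latter an adjusted p of 0.003, under the fold threshold.

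Taking the 8 genes as a group, 0 were called by edgeR in any of the 6 comparisons, in which 0.23% (rd10 P15 against WT P15), 1.48% (rd10 P18 against WT P15), 0.386% (rd10 P21 against WT P15), 0.591% (rd10 P18 against rd10 P15), 0.401% (rd10 P21 against rd10 P15) and 0.0196% (rd10 P21 against rd10 P18) of all genes tested were called. DESeq2 called 1 of the 8 in each of rd10 P21 against WT P15 (Sox9) and rd10 P21 against rd10 P15 (Aqp4), and 0 in the other 4, in which it called 2.12%, 4.74%, 2.99% and 0.6% of the genes it tested. In the comparison of rd10 P15 with WT P15, 2 of the 8 were higher in both libraries, Slc1a3 and Car14, beside 24.8% of all genes. The nearest libraries of Car14 were almost tied, at 76.9 CPM (rd10 P15) and 76.6 CPM (WT P15). Lower in both was 1, Dkk3, beside 24.9%. At unadjusted p under 0.05, 1 was higher, beside 6.61%, and 0 were lower, beside 5.72%. The median log2 fold change was 0.0127, against -0.0061 over all genes.

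In rd10 P18 against WT P15 the 8 genes were split, with 4 log2 fold changes above 0, beside 51.1% of all genes, and 4 below, beside 48.9%. Slc1a3 and Sox9 were higher in both libraries, beside 24.1% of all genes, and Glul was lower in both, beside 22.9%. These 3 genes also had an unadjusted p under 0.05, which was reached by 9.94% of all genes in the higher and 7.47% in the lower direction. With either WT library left out, 1 gene in place of 2 was higher at that p. The median log2 fold change was 0.05, against 0.01 over all genes. It was -0.05 without WT P15 replicate 1 or without rd10 P18 replicate 2, with 4 and 3 genes above 0, and 0.17 without WT P15 replicate 2, without rd10 P18 replicate 1 or with library-size scaling, with 6, 5 and 6 above 0.

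In rd10 P21 against WT P15 the values lay mostly on one side. Of the 8 genes, 7 had a log2 fold change above 0, beside 50.3% of all genes. The same 7 were higher in both libraries, beside 24.9%. Car2 was lower in both, beside 24.2%, though its nearest libraries were at 454.5 CPM (rd10 P21) and 456.0 CPM (WT P15). Unadjusted p was under 0.05 for 6 of the 8, all higher (Slc1a3, Kcnj10, Aqp4, Car14, Sox9 and Dkk3), beside 7.25% of all genes. At that p 0 were lower, beside 4.56%. The median log2 fold change was 0.46, against 0.00 over all genes (0.001 before rounding). Without rd10 P21 replicate 1 or without WT P15 replicate 1, 7 log2 fold changes were still above 0, but 2 had an unadjusted p under 0.05 in each fit.

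Among the rd10 ages, P18 against P15 gave 3 genes higher in both libraries (Aqp4, Sox9 and Dkk3), beside 21.9% of all genes. The nearest libraries of Aqp4 were almost tied, at 113.4 CPM (rd10 P18) and 113.0 CPM (rd10 P15). Lower in both were 2 (Glul and Car14), beside 20.4%. Unadjusted p was under 0.05 for these 2 in the lower direction, beside 5.47%, and for 0 in the higher, beside 7.43%. These counts were 0 lower and 1 higher without rd10 P15 replicate 1, 3 lower and 2 higher without rd10 P18 replicate 1, and 0 lower and 2 higher with library-size scaling. P21 against P15 gave 6 higher in both, beside 26%, and 1 lower in both, Car2, beside 25.5%. Here 4 genes were higher at unadjusted p under 0.05 (Kcnj10, Aqp4, Sox9 and Dkk3), beside 7.39%, and 0 were lower, beside 5.44%. The 4 became 2 without rd10 P15 replicate 2 or without rd10 P21 replicate 1. P21 against P18 gave 8 log2 fold changes above 0, beside 49.8% of all genes, with a median of 0.43, and 6 genes were higher in both libraries, beside 21%, and 0 lower in both, beside 22%. In the latter comparison 4 genes had an unadjusted p under 0.05, all higher (Glul, Aqp4, Car14 and Dkk3), beside 4.81% of all genes, and 0 were lower, beside 6.04%. In place of these 4 there were 2 without rd10 P21 replicate 1 and 3 without rd10 P18 replicate 1.

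**Figure D2:**
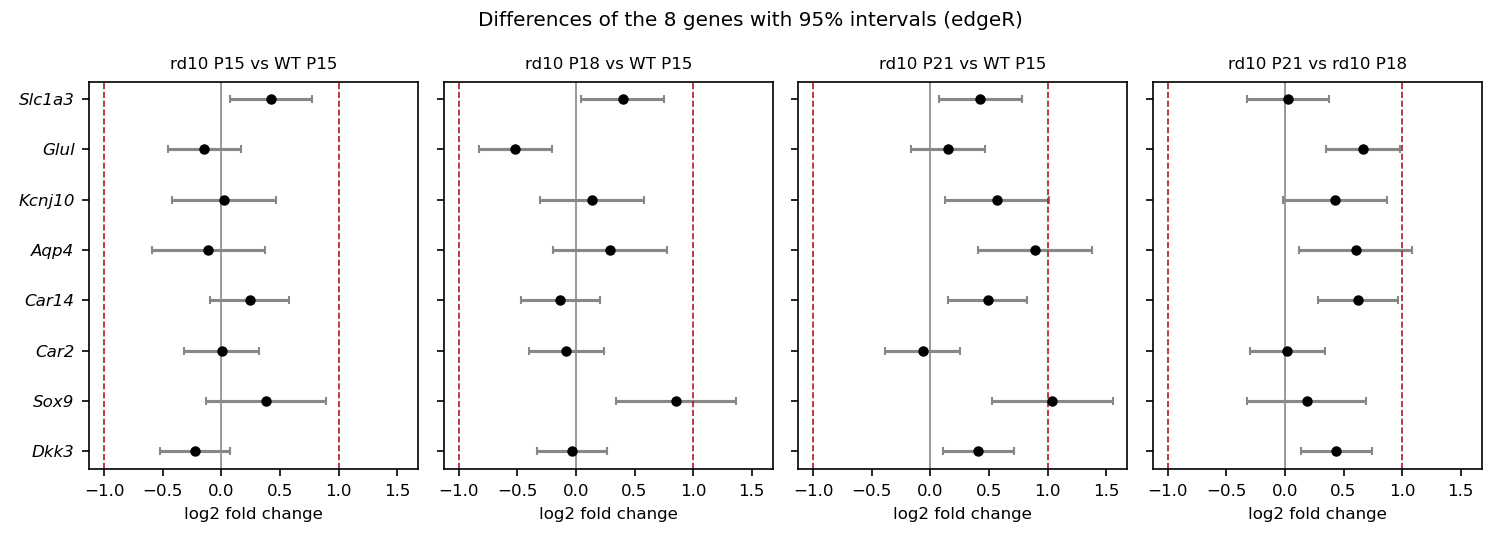
Log2 fold change of the 8 genes (horizontal axes) for rd10 at each age against WT P15 and for rd10 P21 against rd10 P18 by edgeR, one panel each, with 95% intervals as grey bars and dashed lines at the fold threshold of -1 and 1. At P21 against WT P15 the estimates of 7 genes lie above 0, from 0.15 for Glul to 1.04 for Sox9, and Car2 lies at -0.06.

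A test of any difference among the 4 groups gave edgeR adjusted p of 0.111 for Aqp4, 0.129 for Sox9, 0.135 for Dkk3, 0.136 for Glul, 0.169 for Car14, 0.310 for Kcnj10, 0.340 for Slc1a3 and 0.949 for Car2, so that 0 of 8 passed 0.05, beside 1.44% of all genes. At unadjusted p under 0.05 there were 5, beside 16.4%. The DESeq2 likelihood ratio test passed 4 of 8, Aqp4 (adjusted p = 0.00135), Dkk3 (0.00727), Glul (0.00733) and Sox9 (0.00855), beside 8.92% of the genes it tested. The edgeR count was 2 without rd10 P18 replicate 1 and 4 without rd10 P18 replicate 2.

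Other genes of the same pathways were read from lists chosen by function. Of 12 genes of glutamate and glutamine handling, 0 were called in any comparison, and their median log2 fold change over WT P15 was 0.05 (P18) and 0.06 (P21). At unadjusted p under 0.05 they numbered 2 at P15, 0 at P18 and 1 at P21, all higher, beside the 6.61%, 9.94% and 7.25% of all genes, and DESeq2 called 0 in any comparison. Among those with a mean of at least 1 CPM, the largest log2 fold changes in size at P18 were those of the glutamine transporter Slc38a5 (1.06, adjusted p = 0.540) and the transporter Slc1a2 (-0.66, adjusted p = 0.651), whose rd10 P15 libraries differed widely at 64.7 and 281 CPM. Of 12 potassium and water channels and their anchors, 0 were called by edgeR. At unadjusted p under 0.05 there was 1 higher and 1 lower at P18, beside 9.94% and 7.47% of all genes, and 2 higher and 1 lower at P21, beside 7.25% and 4.56%. DESeq2 called 1 at P18, beside 4.74% of the genes it tested, Kcnj16, which is named after its value was seen. Dmd, which encodes dystrophin, was at -1.03 in rd10 P18 (adjusted p = 0.384) and the water channel gene Aqp1 at -0.66 (adjusted p = 0.105).

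Among 15 tested genes of carbonic anhydrases and of acid or bicarbonate transport 0 were called by edgeR. At unadjusted p under 0.05 there were 1 higher and 3 lower at P18, beside 9.94% and 7.47% of all genes, and 2 higher and 2 lower at P21, beside 7.25% and 4.56%. DESeq2 called 0 of them at either age against WT P15, with Car12 at -1.97 (adjusted p = 0.268) and the lactate transporter gene Slc16a3 at 0.63 (adjusted p = 0.110) in rd10 P18. Of 9 tested Dickkopf and Wnt genes, Kremen1, which encodes a Dickkopf receptor, was called in rd10 P21 against rd10 P15 (log2 fold change 1.04, adjusted p = 0.0248). Kremen1 lost this call when a library of either of those groups was left out. Sfrp1, a secreted Wnt inhibitor gene, was at 1.11 in rd10 P18 against WT P15 (adjusted p = 0.0942).

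Genes of a role like that of Sox9 were read mostly above WT P15 at each rd10 age, and less so between the rd10 ages. Of 15 transcription factor and Notch genes of Müller glia and progenitors, 12 had a log2 fold change above 0 in rd10 P18 (51.1% of all genes) and 14 in rd10 P21 (50.3%) against WT P15, with medians of 0.45 and 0.53. Their median was already 0.33 in rd10 P15 over WT P15, with 5 higher at unadjusted p under 0.05, beside 6.61% of all genes. Over rd10 P15 the median was 0.12 for rd10 P18 and 0.036 for rd10 P21. Called was 1 of them, Id1, in rd10 P18 (log2 fold change 1.28, adjusted p = 0.0460), and its relative Id3 was at 1.57 (adjusted p = 0.0623). The Id1 call was lost when any of the other 7 libraries was left out and kept without rd10 P18 replicate 2.

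Genes listed for reactive Müller glia were read in the same libraries. Which cells of the whole retina made them, Edn2 included, was not tested, and Gfap is also in the list of astrocyte genes. Of the 11 listed genes, 10 were called higher in rd10 P18 against WT P15 (median log2 fold change over the 11, 3.39). In rd10 P21 against WT P15, 7 were called higher (median 1.81). Called in either direction were 1.48% of all genes at P18 and 0.386% at P21. All 11 log2 fold changes were above 0 at both ages. Gfap stood at 27.3 and 42.9 CPM in WT P15 and at 363 and 398 CPM in rd10 P18 (log2 fold change 3.44, adjusted p = 0.000745). Bcl3, a regulator of NF-kappaB, was at 6.17 (adjusted p = 0.00697), Lcn2, which encodes a secreted lipocalin, at 5.99 (adjusted p = 0.0370), and Stat3, a transcription factor of cytokine signalling, at 1.47 (adjusted p = 0.00271). At P15, Nes, an intermediate filament gene, was called higher in rd10 (1.47, adjusted p = 0.0248) and Edn2, which encodes an endothelin, lower (-4.21, adjusted p = 0.0252). The other 6 called at P18 were Serpina3n, Edn2, Socs3, Cebpd, Osmr and Nes, and Fgf2 was not called (1.40, adjusted p = 0.531), its rd10 P18 libraries lying on either side of WT P15, at 146 and 12.9 CPM against 29.5 and 30.7 CPM. With single libraries left out the count was 7 to 10 at P18 and 0 to 8 at P21, and the latter was 0 without either rd10 P15 library, 1 without either WT P15 replicate 1 or rd10 P21 replicate 1 and 3 without WT P15 replicate 2. In rd10 P21 against rd10 P18, 10 of the 11 log2 fold changes were below 0. Of these, 9 had an unadjusted p under 0.05 by edgeR, beside 6.04% of all genes in the lower direction. Called were 0 by edgeR, beside 0.0196% of all genes, and 6 by DESeq2, beside 0.6%. The log2 fold changes of all 8 homeostatic genes were above 0 in this comparison, 4 of them at unadjusted p under 0.05. Those of Car2 (0.02) and Slc1a3 (0.03) were near 0 and turned when single libraries were left out.

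The other 10 genes of Müller glia were mixed. Clu, which encodes the chaperone clusterin, rose from 425 and 454 CPM in WT P15 to 1229 and 946 CPM in rd10 P18 (log2 fold change 1.31, adjusted p = 0.0222) and to 1436 and 1063 CPM in rd10 P21 (1.51, adjusted p = 0.0332). Vim, which encodes the intermediate filament vimentin, rose in rd10 P18 (1.63, adjusted p = 0.0222). Rlbp1 was at -0.39 in rd10 P18 (adjusted p = 0.229) and 0.00 in rd10 P21 (0.0024 before rounding). The list's median was 0.06 at P18 and 0.24 at P21, against 0.46 for the 8 homeostatic genes at P21. With either WT library left out Clu was called at neither age and Vim was not called, without rd10 P18 replicate 1 Vim was not called, and the P21 call of Clu was also lost without either rd10 P15 library or rd10 P21 replicate 1.

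**Figure D3:**
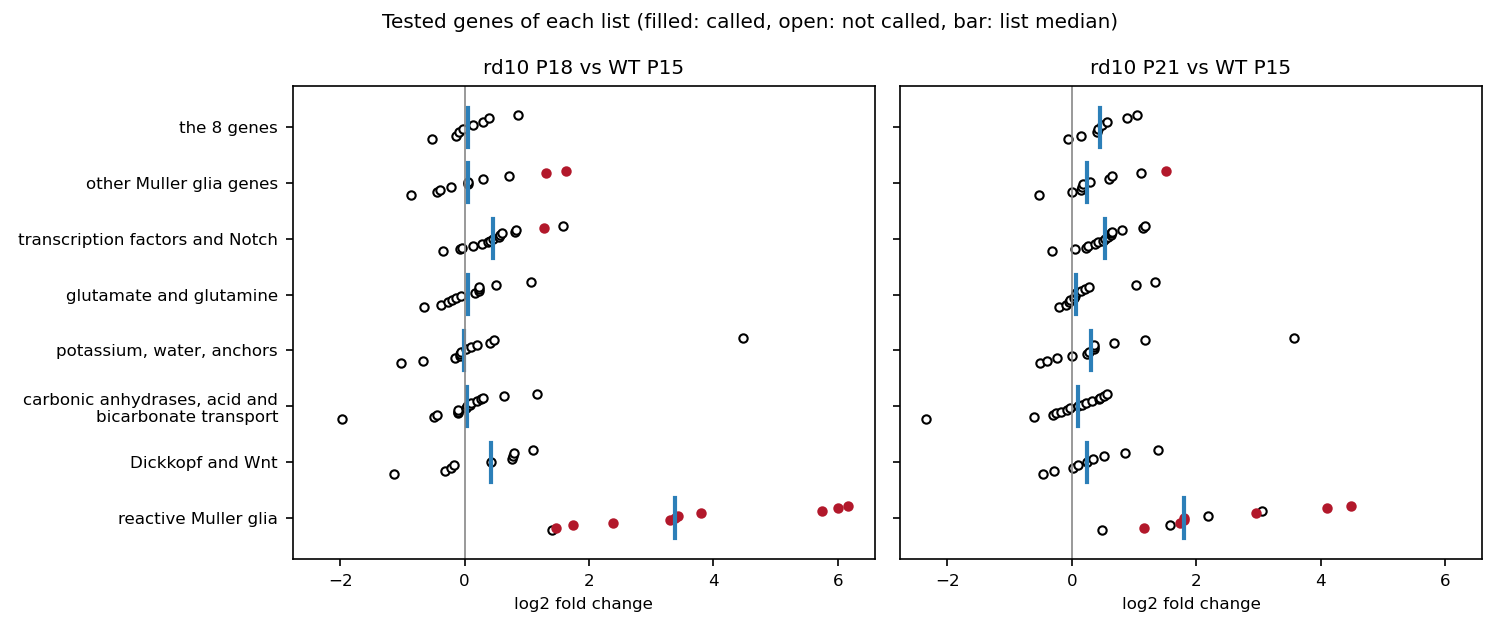
Log2 fold changes (horizontal axes, edgeR) of the 8 genes and of the lists of related genes, with rd10 P18 against WT P15 on the left and rd10 P21 against WT P15 on the right. Each point is a gene, filled where called, and the blue bar is the list's median. The reactive genes lie highest at P18, with a median of 3.39, while the 8 genes have a median of 0.05 at P18 and 0.46 at P21.

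Markers of other cells moved with age and genotype as well. For rod genes the median log2 fold change over WT P15 was -0.43 (P15), -0.53 (P18) and -0.98 (P21), with 7 of 7 below 0 at P18 and P21. Cone genes had medians of -0.81, -0.58 and -0.19 at these ages. Bipolar cell genes, whose cells lie beside the Müller cell bodies, had a median of 0.30 at P21 with 8 of 8 above 0, horizontal cell genes a median of 0.44 with 4 of 4 above 0, and amacrine and ganglion cell genes a median of 0.06 with 6 of 9 above 0. The 8 homeostatic genes had a median of 0.46 at P21, and the part of the other cells in it was not tested.

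Retinal astrocytes also make Aqp4, Slc1a3 and Gfap. Of 5 astrocyte genes, Pax2, which defines these cells in the retina, stayed between 0.559 and 2.57 CPM and was at 0.01 in rd10 P21 against WT P15 (0.0054 before rounding), and S100b was at -0.25. In rd10 P15 Pax2 was at 1.37 (adjusted p = 0.446). The list had a median of 0.55 in rd10 P21 against WT P15, with 4 of 5 above 0 and 3 higher at unadjusted p under 0.05. These were Gfap, which was called (1.81, adjusted p = 0.0288), Aldh1l1 (0.98, adjusted p = 0.108), at 38.8 and 28.9 CPM against 17.1 and 17.2 CPM, and Pdgfra (0.55, adjusted p = 0.313). Aldh1l1 was called higher at P18 (log2 fold change 1.46, adjusted p = 0.0222). The summed level of the list was 75.6 and 97.9 CPM in WT P15, 94.2 and 101 CPM in rd10 P15, 454 and 476 CPM in rd10 P18 and 196 and 205 CPM in rd10 P21, most of it Gfap at P18. The part of astrocytes in Aqp4 and Slc1a3 was not tested.

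Summed endothelial genes were at 219 and 291 CPM in WT P15 and 471 and 370 CPM in rd10 P21, with 5 of 5 log2 fold changes above 0 and a median of 0.89. Most of that sum was Kdr, at 417 and 321 CPM in rd10 P21. The endothelial median was higher in rd10 P15, at 1.62 over WT P15 with 1 called, and 4 of 5 were below 0 in rd10 P21 against rd10 P15. Microglial genes were at 66.5 and 69.1 CPM in WT P15 and 277 and 157 CPM in rd10 P21, with 7 of 7 above 0 and 2 called. Pigment epithelium genes were at 142 and 170 CPM in rd10 P15, against 25.9 and 95.5 CPM in WT P15 and 14.99 to 24.3 CPM in rd10 P18 and P21. Oligodendrocyte genes stayed between 34.5 and 49.7 CPM in all libraries, mostly Mbp, and lens and ciliary genes between 8.28 and 86.3 CPM, with Mip at 0 in all.

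**Figure D4:**
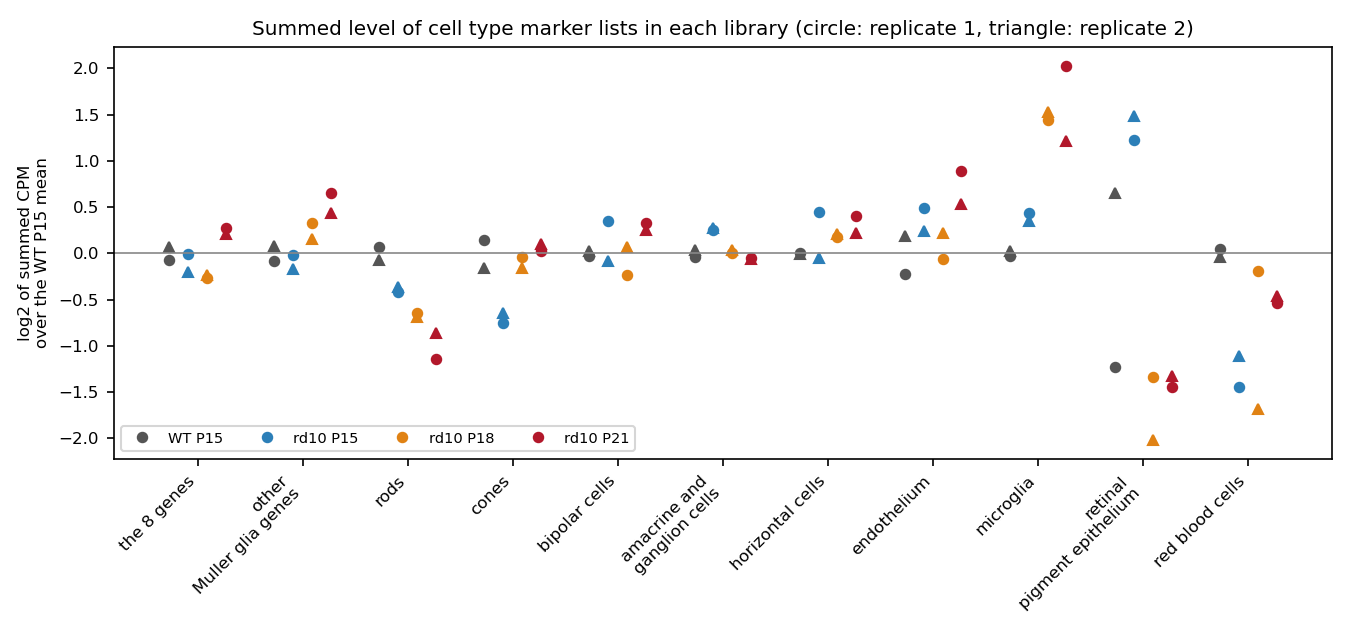
Summed CPM of each marker list in each library, as the log2 ratio to the mean of the WT P15 libraries (axis in log2 units). Points are libraries, 2 per group. Rod genes lie below 0 in all 6 rd10 libraries, and the 8 genes lie above 0 in both rd10 P21 libraries.

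Patterns over the 8 libraries were compared by the root mean square difference of log2 CPM, each gene centred on its own mean, among 12652 genes with a mean of at least 5 CPM. The nearest genes were Neurod4 (0.0532) and Sorbs2 (0.0547) to Slc1a3, and Nol4 (0.0822) and BC024978 (0.0876) to Glul. For Kcnj10 they were Wscd2 (0.0701) and Nfix (0.0736), the latter a transcription factor gene of the list above, and for Aqp4 Tbc1d31 (0.101) and Inf2 (0.148). Car14 lay nearest to S1pr1 (0.0998) and Pikfyve (0.113), and Car2, which varied little, to Ensa (0.0478) and Dcaf13 (0.0479). Sox9 lay nearest to Arhgap42 (0.124) and Fgfr1 (0.145), and Dkk3 to Mfsd4a (0.0648) and St5 (0.0656).

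Among the 8 genes themselves, Kcnj10 ranked 6 of 12652 in nearness to Aqp4 (0.181), while Aqp4 ranked 189 in nearness to Kcnj10. Dkk3 ranked 46 in nearness to Kcnj10 (0.142), and Kcnj10 ranked 89 in nearness to Dkk3. Car14 ranked 193 in nearness to Glul (0.174), and Glul 84 to Car14. By contrast Slc1a3 ranked 5946 in nearness to Glul (0.345). These distances describe the same 8 libraries as the comparisons above and share their scaling.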

How the data were processed

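Total RNA of 1 whole retina per sample was enriched for poly(A) RNA and sequenced. The deposited table holds the authors' raw read counts per Ensembl gene, whole numbers without normalization, and no column was left unmapped to a sample (0). The submitters' processing notes name HISAT2. Not given in the sources used here were its version, the genome build, the gene models and the program that counted reads. Gene symbols, positions and exon lengths come from GENCODE M21 (GRCm38), where 52081 of the 57010 identifiers are named and Pc is listed as Pcx.

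Genes were kept by filterByExpr (minimum count 10, minimum total count 15), scaled by TMM and tested over all 8 libraries with edgeR 4.0.16 (quasi-likelihood, robust, R 4.3.3, limma 3.58.1), with Benjamini-Hochberg adjustment over 20457 genes. Calls needed an adjusted p under 0.05 together with a log2 fold change beyond 1 in size, as in the study. The standard error is the log2 fold change divided by the root of F, and intervals use the model's degrees of freedom. Fits were tested on simulated data. Libraries held 28076947 to 33724562 counts. The labels do not say that replicate numbers pair retinas, and correlations of deviations between groups were -0.02 to 0.06, so no block was used. These correlations cannot exclude a pairing.

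Alternatives were DESeq2 1.42.0, RLE or library-size scaling, no filter, the 4 libraries compared alone, a replicate block, a term for Y-linked counts and each library left out. Adding the Mir8114 reads to Glul, and the counts of calls in each list without single libraries, were chosen after seeing the data. The 8 genes and all lists were chosen with earlier results of these data known, and comparisons were read from the groups in the labels. Besides the 8, the text names genes called in each related list, the 2 with the largest log2 fold change in size in rd10 P18 against WT P15 (mean of at least 1 CPM), and the 2 nearest patterns. Marker genes and any other gene named were chosen for their known role or after their values were seen. Another planned marker gene is not reported here. Figures were drawn with matplotlib 3.10.9.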

Additional observations from a re-analysis of the deposited data

How the results depend on the processing

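With 2 libraries per group, the calls rested on how the spread was estimated. By edgeR 0 of the 8 genes were called in each comparison. DESeq2 and the edgeR fit of only the 4 libraries compared called 1 in rd10 P21 against WT P15 and 1 in rd10 P21 against rd10 P15, and leaving out a library moved the latter count from 0 to 1. Among the 4 groups DESeq2 passed 4, and left-out libraries gave 0 to 4. Counts over all genes rested on single libraries too, from 6 to 246 at P15, 39 to 1250 at P18 and 4 to 210 at P21 for rd10 over WT, beside 47, 303 and 79 with all 8 and 429, 957 and 573 by DESeq2. For rd10 P18 against rd10 P15 (121 with all 8) they were 16 to 977 and 604 by DESeq2, for rd10 P21 against rd10 P15 (82) 10 to 217 and 526, and for rd10 P21 against rd10 P18 (4) 3 to 963 and 118.

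Some directions turned, and the cause was not tested. Library-size scaling moved the median of all genes to 0.13 (P18) and 0.11 (P21) for rd10 over WT P15, and turned Slc1a3 in rd10 P18 against rd10 P15 (0.052), Car2 in rd10 P18 (0.044) and P21 (0.046) against WT P15 and in rd10 P21 against rd10 P15 (4e-04), and Dkk3 in rd10 P18 against WT P15 (0.088). The share of higher calls was 85.8% at P18 and 73.6% at P21 under that scaling, against 77.6% and 63.3%. Without rd10 P18 replicate 2 it was 38.6% of 1250 calls over WT P15 and 32.5% of 977 over rd10 P15 (88.4% with all 8). The term for Y-linked counts turned Slc1a3 in rd10 P18 against rd10 P15 (0.024) and Car2 in rd10 P15 against WT P15 (-0.11).

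Left-out libraries turned Slc1a3 in rd10 P18 against P15 (-0.17 to 0.14), P21 against P15 (-0.14 to 0.16) and P21 against P18 (-0.093 to 0.137). Against WT P15 they turned Kcnj10 at P15 (-0.17 to 0.19) and P18 (-0.082 to 0.33), Aqp4 at P18 (-0.024 to 0.55), Car14 at P18 (-0.27 to 0.029), Dkk3 at P18 (-0.11 to 0.063) and Car2 at P15 (-0.034 to 0.041) and P18 (-0.24 to 0.059). Kcnj10 in rd10 P18 against P15 (-0.10 to 0.31), Car2 in the same comparison (-0.24 to 0.057) and Car2 in rd10 P21 against P18 (-0.12 to 0.17) turned as well. The log2 fold changes in rd10 P21 against WT P15 of the 7 genes above 0 kept their direction without each library, Sox9 at 0.98 to 1.12 and Aqp4 at 0.69 to 1.07.

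With the replicate number as a block, 0 of the 8 genes were called and all 48 log2 fold changes kept their direction and their side of the threshold, Sox9 in rd10 P21 against WT P15 at 1.03 and Aqp4 in rd10 P21 against rd10 P15 at 1.01. The labels do not say whether the numbers pair the retinas. Over all genes the block gave 16 calls for rd10 P15 and 18 for rd10 P21 over WT P15. Without the filter, with RLE and with the Mir8114 reads added to Glul, all 48 likewise kept both.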
